A study of Homo sapiens with 34 samples.

Results

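The region described here is the stretch of chromosome 8 that lies past the distal end of PVT1, from 128110001 to 130000000 on hg38, a length of 1.89 Mb. Its members were all H3K9 methylation peaks of the 34 deposited lists whose midpoint fell in that interval, with the genes LINC00824 and CCDC26 that lie in it. There were 1055 such peaks among 1034303 in all, of which 350 came from 18 COLO320 DM lists and 705 from 16 PC3 DM lists. The peaks were chosen by position alone.

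The study mapped H3K9 methylation by CUT&Tag, a method in which an antibody guides a transposase that cuts and tags the DNA beside the mark, in 2 cancer cell lines that carry MYC on extrachromosomal DNA (ecDNA). COLO320 DM is a colorectal adenocarcinoma line and PC3 DM a prostatic adenocarcinoma line. Each library came from 50000 nuclei, collected 3 days after transfection with 700 ng of sgRNA plasmid. COLO320 DM had 3 libraries each of the plasmids ecSE1, ecSE2, ecSE3 and ecSE4, of the combination ecSEcombo and of the vector. PC3 DM had 3 libraries each of ecSE1, ecSE2, ecSE6 and ecSEcombo, 2 of ecSE7 and 2 of the vector. The labels call the cells of all groups, vector groups included, lines derived from COLO320 DM or PC3 DM, without saying what they carry, and name the plasmids' effect a CRISPR-based perturbation of the epigenome. They give neither the positions of the ecSE elements nor what the combination covers, nor whether it is a single plasmid or a mix. The antibody is named as H3K9me without a degree of methylation. The labels do not say whether replicates were grown apart, so p-values speak only of variation among the libraries at hand, part or all of which may be technical.

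The higher methylated forms of H3K9 are histone marks of closed chromatin: they are bound by HP1 proteins and keep repeats and silent genes packed. Which form the peaks here carry is not known from the labels. Gene deserts are long intervals with few protein-coding genes, and the one beside MYC is known for distal enhancers of MYC and for noncoding RNA genes. ecDNA circles are cut from a chromosome, so one side of a circle's end is present in many copies and the other is not.

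The interval is poor in protein-coding genes but not empty of genes. RefSeq (GRCh38.p14) lists 19 genes that overlap the interval, of which 10 are long noncoding RNA genes, 5 pseudogenes, 2 microRNA genes and 2 protein-coding genes, GSDMC and CYRIB, both near its far end. CCDC26, at 129351694 to 129680239, is annotated there as a long noncoding RNA gene despite its name, which is that of a coiled-coil protein, and is known for copy gains in acute myeloid leukaemia. LINC00824, at 128405269 to 128564679, is a long intergenic noncoding RNA gene.

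List lengths differed widely and bear on every count. COLO320 DM lists held 9385 to 125214 peaks (median 18271) and PC3 DM lists 10288 to 102290 (median 26527), and 2 lists exceeded 100000, ecSE1 replicate 2 of COLO320 DM and ecSEcombo replicate 1 of PC3 DM. No 2 lists were identical. Read totals were not used here, so the depth of the libraries is unknown. A list holds only peaks past the authors' threshold, so a bin or gene with no peak may still carry signal. Density was therefore divided by the same list's density on the autosomes and X outside a stretch around MYC, from 3.74 Mb before its start to 10.3 Mb past it, and is called the relative density. It was computed with 0.5 peak added to each desert count. The rest of the genome so defined is called outside 8q24. Chromosome length was taken as the highest peak end over all lists. Stretches that can hold no peak, such as blacklisted ones, stayed in that length. They lower the density and coverage outside 8q24 and raise ratios to these, by an amount that was not computed.

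The region lay entirely outside the block of dense peaks that COLO320 DM carried over MYC. In COLO320 DM it held 10.3 ± 10.9 peaks per Mb, against 282 ± 58.0 per Mb on the amplicon side, a window that runs from LRATD2 through MYC, from 1.24 Mb before the start of MYC to 14.6 kb past it (SD, n = 18). In PC3 DM it held 23.3 ± 14.9 peaks per Mb, against 24.6 ± 12.5 per Mb on the same amplicon side (SD, n = 16). The log2 ratio of amplicon side over desert averaged 5.02 ± 0.64 in COLO320 DM and was above 0 in 18 of 18 libraries (sign-flip permutation test, two-sided, p = 1e-05, the smallest that 100000 resamples allow). In PC3 DM this log2 ratio averaged 0.22 ± 0.46 and was above 0 in 10 of 16 libraries (sign-flip permutation test, p = 0.0758, adjusted over 14 tests p = 0.177). The lines differed by 4.81 on the log2 scale (permutation test, two-sided, p = 1e-05, the smallest possible). The region and these tests were chosen with earlier results of the same data known. The p-values for COLO320 DM and between the lines are therefore descriptive. Peak counts were not corrected for copy number. The ratio in PC3 DM passed the threshold without ecSE1 replicate 3 (0.25, permutation p = 0.0405) or ecSE6 replicate 3 (0.26, permutation p = 0.0383), and also under the stricter peak rules given with the processing.

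**Figure D1:**
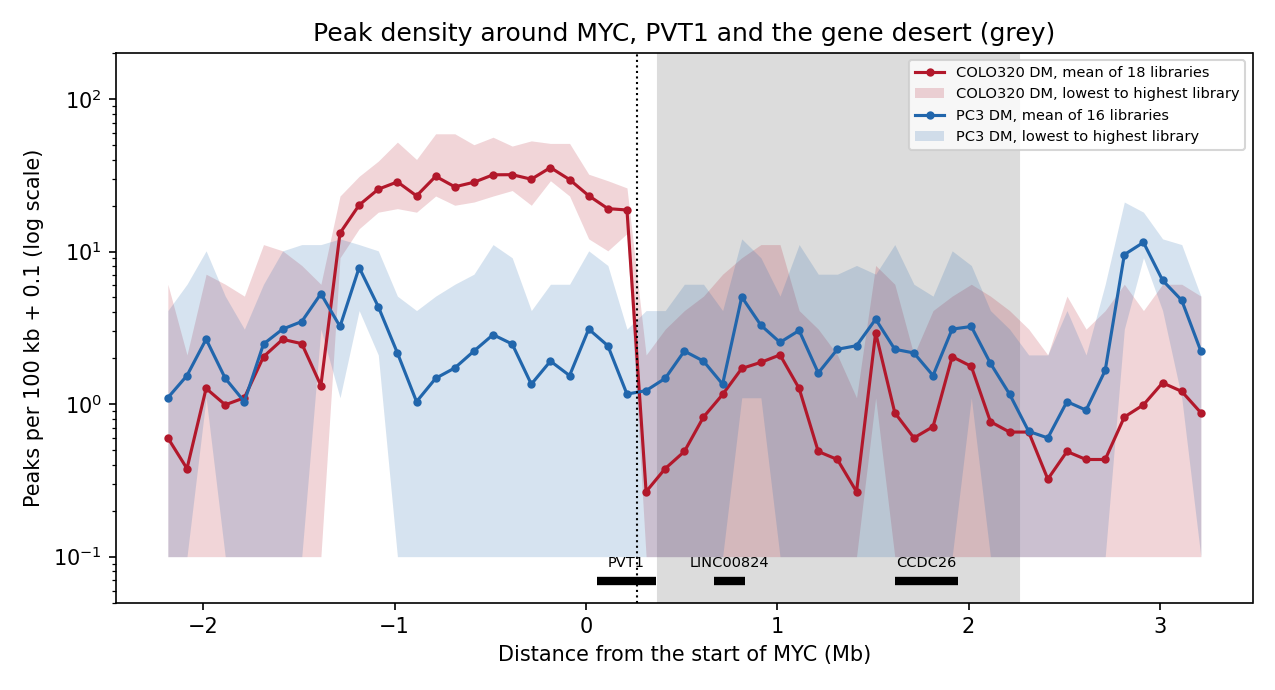
Peaks per 100 kb, with 0.1 added for the log axis, by distance from the start of MYC. Lines are means of 18 COLO320 DM and 16 PC3 DM libraries, bands run from the lowest to the highest library, the grey area is the desert and the dotted line marks the step of COLO320 DM. The COLO320 DM line drops inside PVT1, before the grey area begins, and lies below the PC3 DM line in all 19 bins of the desert.

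The fall from amplicon level to flank level occurred inside PVT1, a long noncoding RNA gene that neighbours MYC and is often amplified with it. PVT1 spans 127794524 to 128101256. In the mean of the COLO320 DM libraries, a 2-level step fitted by least squares to peaks per 25 kb, from 235 kb before the start of MYC to the end of the desert, ended the high level at base 128000000, which is 205477 bp into PVT1, 101256 bp before its upper end and 110000 bp before the desert begins. The high level was 6.28 peaks per 25 kb and the low level 0.245, a ratio of 25.6. Fitted alone, 11 of 18 libraries placed the step in the same bin, and the others placed it earlier, down to 127650000. The fit of ecSE2 replicate 2, at 127775000, lay before PVT1. That of ecSE1 replicate 1, at 127650000, lay before the start of MYC at 127735434.

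The last peak of the block gave a finer position. In 17 of 18 COLO320 DM libraries the last peak before a gap of 50 kb or more ended between 127997570 and 127997693. The exception was ecSEcombo replicate 1, where it ended at 128011281. The gap that followed spanned 67912 to 756756 bp (median 377870), and in 17 of 18 libraries, all but ecSE1 replicate 2, the next peak lay within the desert. Between base 128000000 and the start of the desert, 18 lists together held 3 peaks, from 2 libraries.

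**Figure D2:**
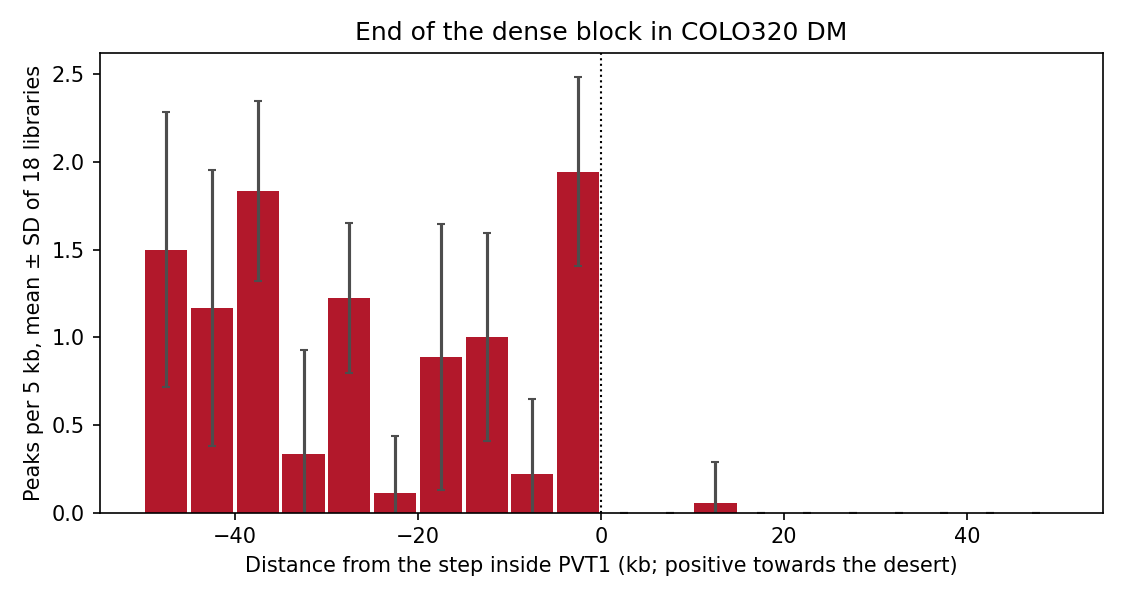
Peaks per 5 kb in COLO320 DM by distance from the fitted step inside PVT1. Bars are means of 18 libraries and error bars are SD. The last bin before the step had 1.94 ± 0.539 peaks and a peak in 18 of 18 libraries, and within 50 kb after it 1 library had a peak.

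Past the step, COLO320 DM counts stayed low before they increased. The 100 kb bin from 128100001, the first to reach into the desert, held 0.278 ± 0.752 peaks in COLO320 DM (none in 15 of 18 libraries), against 1.38 ± 1.15 in PC3 DM (none in 4 of 16). The mean of COLO320 DM was then 0.389 and 0.722 peaks in the next 2 bins. Without ecSE1 replicate 2, the longest list, the means of these 3 bins were 0.118, 0.176 and 0.471 peaks. The lowest mean of all 18 libraries in the desert, 0.167 peaks, stood in the bin from 129100001. The highest mean of COLO320 DM, 2.83 ± 1.62, stood in the bin from 129200001, where every COLO320 DM library had a peak. PC3 DM had its highest mean, 4.94 ± 2.84, in the bin from 128500001, which holds the end of LINC00824. These are counts per list, not divided by list length.

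By library medians, desert peaks of COLO320 DM sat on a local background near that of peaks elsewhere in its genome, far below that of the amplicon side. Whole fragments at the summit and the local background, meaning the number of fragments that the peak caller expected there, were recovered from the authors' fold and p-value of each peak. The background of desert peaks was 1.52 ± 0.767 fragments in COLO320 DM, against 80.0 ± 8.68 on the amplicon side and 1.60 ± 0.439 in peaks outside 8q24 (SD, n = 18). Within libraries, the amplicon side stood 61.6 ± 22.2 times above the desert (21.0 to 112). In PC3 DM the background of desert peaks was 0.585 ± 0.353 fragments, against 1.51 ± 1.65 on the amplicon side and 0.418 ± 0.186 outside 8q24 (SD, n = 16). The ratio of desert to outside was 0.944 ± 0.327 in COLO320 DM and 1.36 ± 0.406 in PC3 DM. Desert peaks had a median fold, by the authors' values, of 5.21 ± 0.344 in COLO320 DM, against 5.18 ± 0.272 in PC3 DM. On the amplicon side the median fold was lower in COLO320 DM, at 2.405 ± 0.075, and 4.97 ± 0.297 in PC3 DM. Outside 8q24 it was 5.54 ± 0.164 in COLO320 DM and 5.31 ± 0.237 in PC3 DM. The median width of desert peaks was 352 ± 70.0 bp in COLO320 DM, against 276 ± 68.7 bp in PC3 DM. Only called peaks enter these medians, they can rise with depth and copy number, and they were not scaled between libraries. Single recurrent sites departed from them. COLO320 DM summits in the bin from 129270001 held a median of 66.5 fragments at fold 4.48, against 14.7 ± 5.00 fragments over desert peaks. PC3 DM summits in the bin from 128565001 held 50 at fold 4.37, against 8.19 ± 2.34. At both sites the fold was below that of desert peaks, 5.21 in COLO320 DM and 5.18 in PC3 DM.

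Relative to the rest of each list, the desert held fewer peaks in COLO320 DM than in PC3 DM. The relative density was 1.28 ± 0.223 in COLO320 DM (0.947 to 1.93, median 1.25, n = 18), against 2.03 ± 0.357 in PC3 DM (1.49 to 2.90, median 1.96, n = 16). The ranges overlapped only in part: 16 of 18 COLO320 DM libraries lay below every PC3 DM library. In COLO320 DM 17 of 18 libraries and in PC3 DM 16 of 16 stood above 1, the density outside 8q24 over full chromosome length. With no peak added, a setting chosen after seeing the data, 16 of 18 and 16 of 16 did, 15 of 18 COLO320 DM libraries lay below every PC3 DM library, and the means were 1.24 ± 0.22 in COLO320 DM and 2.00 ± 0.358 in PC3 DM. The log2 difference, COLO320 DM over PC3 DM, was -0.66 (permutation test, two-sided, p = 1e-05, the smallest possible; adjusted over 14 tests 3.5e-05). The desert held 0.0758 ± 0.0133% of a COLO320 DM list and 0.124 ± 0.0222% of a PC3 DM list (permutation p = 1e-05).

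Covered length gave the same order. Peaks covered 0.399 ± 0.229% of the desert in COLO320 DM (0.173 to 1.17%, median 0.335%) and 0.700 ± 0.310% in PC3 DM (0.170 to 1.52%, median 0.694%), with 0.305% and 0.323% covered outside 8q24. The difference was -0.301 percentage points (permutation test, two-sided, p = 0.00177, adjusted p = 0.00496). In bases, COLO320 DM lists covered 3269 to 22143 bp and PC3 DM lists 3214 to 28725 bp. These ranges overlapped almost wholly. Divided by the coverage outside 8q24 in the same list, the desert stood at 1.32 ± 0.179 in COLO320 DM (1.01 to 1.75) and at 2.24 ± 0.439 in PC3 DM (1.77 to 3.35), and these ranges did not overlap.

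With only vector libraries the values kept their order, but 3 against 2 libraries cannot give a p below 0.1. The log2 difference of relative density was then -0.46 (exact permutation p = 0.2), the covered share differed by -0.299 percentage points (exact permutation p = 0.2), and the log2 ratio of amplicon side over desert differed by 4.99 (exact permutation p = 0.1).

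**Figure D3:**
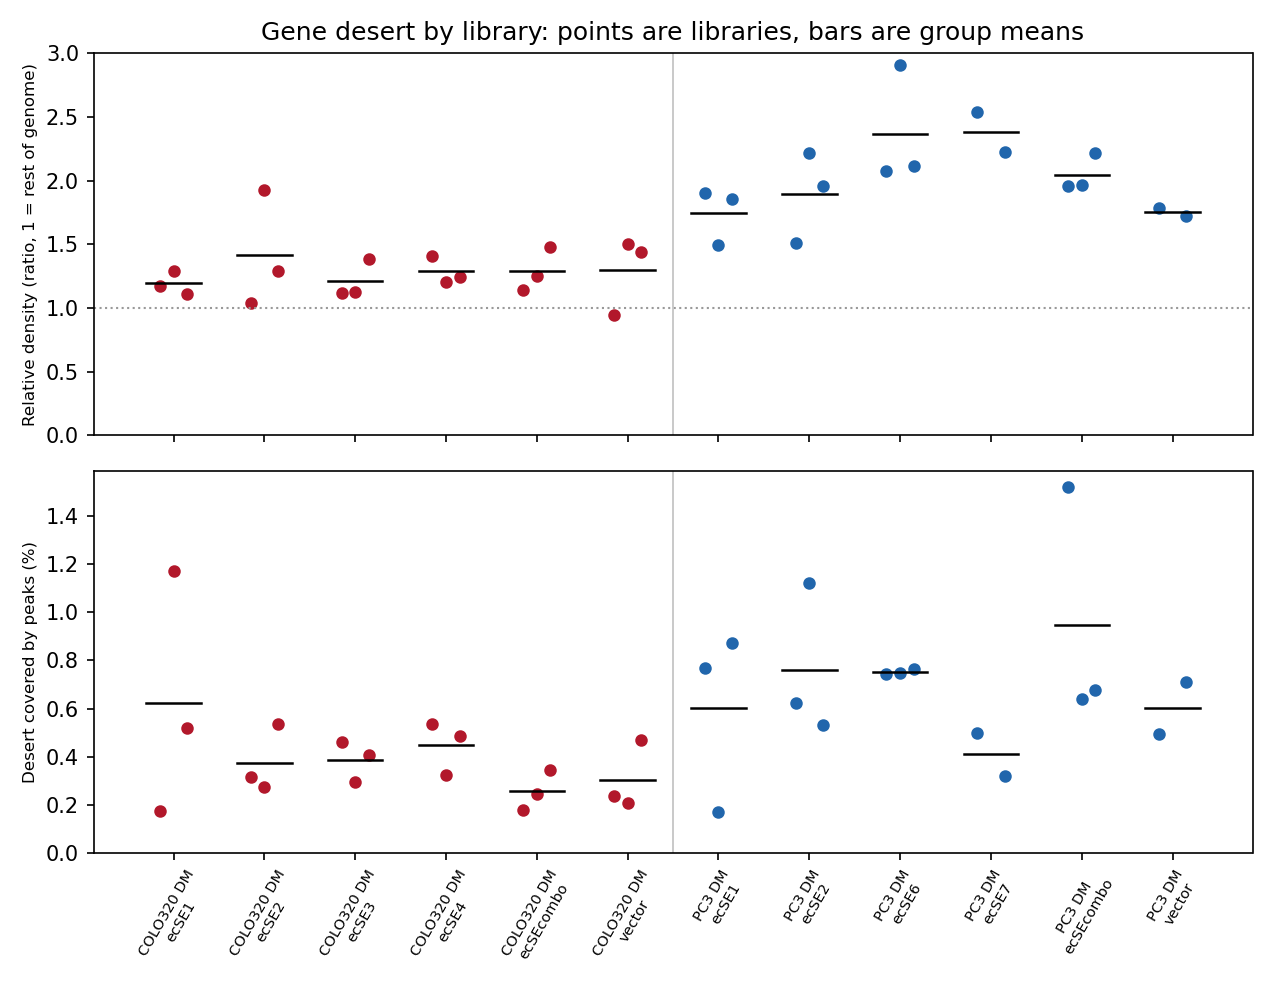
Relative density of the desert (top) and percent of the desert covered by peaks (bottom). Points are single libraries and bars are group means, with COLO320 DM in red and PC3 DM in blue and each line's vector group last. Most COLO320 DM points lie below every PC3 DM point in the top panel, and each plasmid group overlaps with its vector there except ecSE6, ecSE7 and ecSEcombo of PC3 DM, at 1.96 to 2.90 against vector values of 1.78 and 1.73.

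In COLO320 DM the pooled perturbed libraries did not differ past the threshold from the vector libraries in the desert. Single plasmids could not be judged by test, since 3 libraries against 3 cannot pass the threshold. The relative density was 1.28 ± 0.217 in 15 perturbed libraries, against 1.30 ± 0.305 in 3 vector libraries, a log2 difference of -0.01 (exact permutation test, two-sided, p = 0.96). Its sign turned in 8 of 18 cases when 1 library was left out, with values from -0.22 to 0.12, and with no peak added (0.0127, exact permutation p = 0.929). The covered share was 0.418 ± 0.242% in perturbed libraries, against 0.304 ± 0.142% in vector libraries, a difference of 0.114 percentage points (exact permutation p = 0.381).

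By group, the ecSE1 libraries of COLO320 DM had relative densities of 1.18, 1.29 and 1.11 and covered 3269, 22143 and 9836 bp. The 22143 bp belong to the list of over 100000 peaks. The ecSE2 libraries had 1.04, 1.93 and 1.29 and covered 5969, 5184 and 10114 bp, and the ecSE3 libraries had 1.12, 1.13 and 1.38 and covered 8680, 5611 and 7686 bp. Within ecSE2 the densest library relative to its list covered the fewest bases. The ecSE4 libraries had 1.41, 1.21 and 1.25 and covered 10118, 6156 and 9221 bp. The ecSEcombo libraries had 1.14, 1.25 and 1.48 and covered 3410, 4615 and 6516 bp. The vector libraries had 0.947, 1.51 and 1.44 and covered 4513, 3906 and 8837 bp. The vector group alone spanned nearly the range of the perturbed groups, save 1 ecSE2 library.

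In PC3 DM the relative density was 2.07 ± 0.366 in 14 perturbed libraries, against 1.75 ± 0.0406 in 2 vector libraries, a log2 difference of 0.22 (exact permutation test, two-sided, p = 0.267). The covered share was 0.714 ± 0.327% in perturbed libraries, against 0.603 ± 0.154% in vector libraries (exact permutation p = 0.567). Neither difference passed the threshold.

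The ecSE1 libraries of PC3 DM had relative densities of 1.90, 1.49 and 1.85 and covered 14532, 3214 and 16469 bp. The ecSE2 libraries had 1.51, 2.21 and 1.96 and covered 11758, 21188 and 10076 bp. Both groups straddled the vector values. The ecSE6 libraries had 2.08, 2.90 and 2.12 and covered 14054, 14162 and 14410 bp, and the ecSE7 libraries had 2.54 and 2.23 and covered 9442 and 6053 bp. The ecSEcombo libraries had 1.96, 1.96 and 2.22 and covered 28725, 12115 and 12793 bp. The vector libraries had 1.78 and 1.73 and covered 9344 and 13450 bp. The relative densities of ecSE6, ecSE7 and ecSEcombo did not overlap with those of the vector, with log2 differences of 0.41, 0.44 and 0.22.

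Of 10 comparisons of a plasmid or the combination with the vector of its line, none passed the threshold (exact permutation tests, adjusted p = 1 for each). With 2 or 3 libraries a group none could: the smallest p that 3 against 2 allow is 0.1. The log2 differences ran from -0.09 for ecSE1 in COLO320 DM to 0.44 for ecSE7 in PC3 DM. The effect of ecSEcombo was 0.02 in COLO320 DM and 0.22 in PC3 DM, a difference of -0.20 (exact permutation of plasmid labels within each line, two-sided, p = 0.47). That difference was -0.42 without vector replicate 1 of COLO320 DM (exact permutation p = 0.04) and -0.52 when covered bases replaced peak counts (exact permutation p = 0.04).

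Over all peaks, the near and far parts of the desert did not differ past the threshold. The near part, up to 1.26 Mb past the start of MYC, held 10.5 ± 14.2 peaks per Mb in COLO320 DM, against 24.1 ± 16.0 in PC3 DM. The far part, from there to the end of the desert, held 10.1 ± 8.37 in COLO320 DM and 22.6 ± 14.6 in PC3 DM. The log2 ratio of near over far was -0.31 ± 0.99 in COLO320 DM (above 0 in 7 of 18 libraries, permutation p = 0.216) and 0.08 ± 0.40 in PC3 DM (above 0 in 10 of 16, permutation p = 0.443), and the lines did not differ past the threshold (-0.38, permutation p = 0.163).

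Other ways of counting gave unequal parts. With only peaks of a -log10 q of at least 5, the log2 ratio of near over far was -0.74 in COLO320 DM (permutation p = 0.0155) and 0.32 in PC3 DM (permutation p = 0.0469), a difference of -1.06 (permutation p = 0.00227). Counted as covered length over all peaks, the ratio was -0.80 in COLO320 DM (permutation p = 0.00331) and 0.32 in PC3 DM (permutation p = 0.0188), a difference of -1.12 (permutation p = 0.00019). In lists cut to the 9385 best peaks each, the difference was -2.08 (permutation p = 2e-05). By covered bases and by the count of strong peaks, COLO320 DM was weighted to the far part and PC3 DM to the near part. By the count of all peaks neither was past the threshold. Single recurrent bins enter these values. In COLO320 DM the far bins from 129270001, 129600001 and 129795001 averaged 1515, 751.5 and 681 covered bp. In PC3 DM the near bins from 128565001 and 128635001 averaged 929 and 1060 bp, and the far bins from 129600001 and 129795001 351 and 705 bp. The ratios were not computed without these bins.

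**Figure D4:**
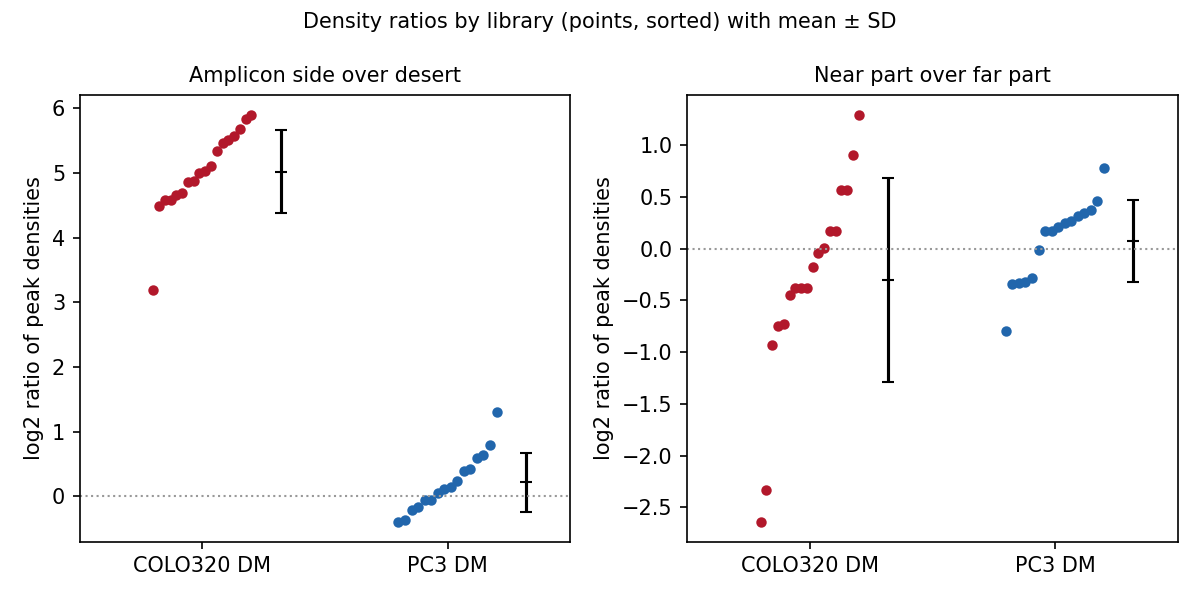
Log2 ratios of peak densities by library: amplicon side over desert (left) and near part over far part of the desert (right). Points are libraries in sorted order, and the bar beside them is the mean ± SD. On the left the COLO320 DM libraries lie at 3.19 to 5.89 and the PC3 DM libraries at -0.39 to 1.30, and on the right both lines straddle 0.

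Most merged sites of the desert were seen in 1 library, as elsewhere in the genome. Of its 378 bins of 5 kb, 322 had a peak in some list, 98 of them in 1 library only; 28 had peaks in COLO320 DM alone, 159 in PC3 DM alone and 135 in both. As shares of bins with a peak, these were 8.70%, 49.4% and 41.9% in the desert, against 19.5%, 46.2% and 34.3% over the genome, and bins with a peak in 1 library made up 30.4% in the desert, against 42.7% over the genome. When overlapping peaks of a line were merged, COLO320 DM had 209 sites, of which 80.9% were seen in 1 library (81.1% outside 8q24), and PC3 DM 524 sites, of which 86.3% were (88.0% outside 8q24). Sites in 9 or more of 18 libraries made up 2.39% in COLO320 DM (3.12% outside 8q24), and sites in 8 or more of 16 made up 1.15% in PC3 DM (0.658% outside 8q24). These shares were not tested. A peak in 9 or more of 18 libraries was found in 4 bins of COLO320 DM, and in 8 or more of 16 libraries in 7 bins of PC3 DM.

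Between the lines, 3 of the 140 tested bins of the desert were called (Fisher's exact test, two-sided, Benjamini-Hochberg adjustment over 120164 bins of the genome). Over the genome 3.47% of tested bins were called, 2.88% as more frequent in COLO320 DM and 0.598% as more frequent in PC3 DM. At 3 of 140, the desert stood near that background. Of the 3, 1 was more frequent in COLO320 DM, the other 2 in PC3 DM. An unadjusted p under 0.05 was found in 21 of the 140 bins, against 17.3% of tested bins over the genome.

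The bin from 128565001 to 128570000, 322 bp past the end of LINC00824, had no peak in 18 COLO320 DM libraries and one in 16 of 16 PC3 DM libraries (exact test, adjusted p = 5.05e-07). Its covered length was 0 bp in every COLO320 DM library, against 184 to 1645 bp (mean 929 ± 441) in PC3 DM. The summits held 18 to 118 fragments there, with a median fold of 4.37 over the local background by the authors' values. The groups did not overlap, and the vector libraries alone showed the same split, with a peak in 0 of 3 for COLO320 DM, against 2 of 2 for PC3 DM.

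The bin from 128635001 to 128640000, 70322 bp past LINC00824, had a peak in 6 of 18 COLO320 DM libraries and in 16 of 16 PC3 DM libraries (exact test, adjusted p = 0.00261). The 6 COLO320 DM peaks covered 216 to 587 bp with 9 to 18 fragments at the summit, and the PC3 DM peaks 579 to 1652 bp with 35 to 106 fragments. The covered lengths touched only at the edge, with 587 bp in the widest COLO320 DM library and 579 bp in the narrowest PC3 DM library.

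The bin from 129270001 to 129275000 went the other way. It begins in the last bases of LOC124902024, an uncharacterised long noncoding RNA gene at 129259103 to 129270895, and had a peak in 18 of 18 COLO320 DM libraries and in 6 of 16 PC3 DM libraries (exact test, adjusted p = 0.00386). The COLO320 DM peaks covered 565 to 2314 bp (mean 1515 ± 441) with 47 to 99 fragments at the summit, and the 6 PC3 DM peaks 162 to 385 bp with 5 to 8 fragments. No library of one line came within the range of the other. All 3 COLO320 DM vector libraries and neither of the 2 PC3 DM vector libraries had it. With bins of 10 kb this call was lost (exact test, adjusted p = 0.0967), while without single libraries its adjusted p stayed between 0.00223 and 0.00703. In the bin before it, from 129265001, a peak stood in 11 of 18 libraries of COLO320 DM and 4 of 16 of PC3 DM (exact test, adjusted p = 0.269).

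The other recurrent positions were not called. The bin from 129795001, which lies 8377 bp from GSDMC, had a peak in 16 of 18 libraries of COLO320 DM and 16 of 16 of PC3 DM, with covered lengths of 681 ± 376 bp and 705 ± 359 bp, and was too common to be tested. GSDMC encodes gasdermin C, of the family of pore-forming proteins. Inside CCDC26, the bin from 129600001 had a peak in 15 of 18 libraries of COLO320 DM and 10 of 16 of PC3 DM (exact test, adjusted p = 0.567), and the bin from 129665001 in 6 of 18 and 11 of 16 (exact test, adjusted p = 0.286). The bin from 129815001 had a peak in 6 of 18 libraries of COLO320 DM and 11 of 16 of PC3 DM (exact test, adjusted p = 0.286). The bin from 128750001 had one in 7 of 18 COLO320 DM libraries and in 1 of 16 PC3 DM libraries (exact test, adjusted p = 0.259).

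**Figure D5:**
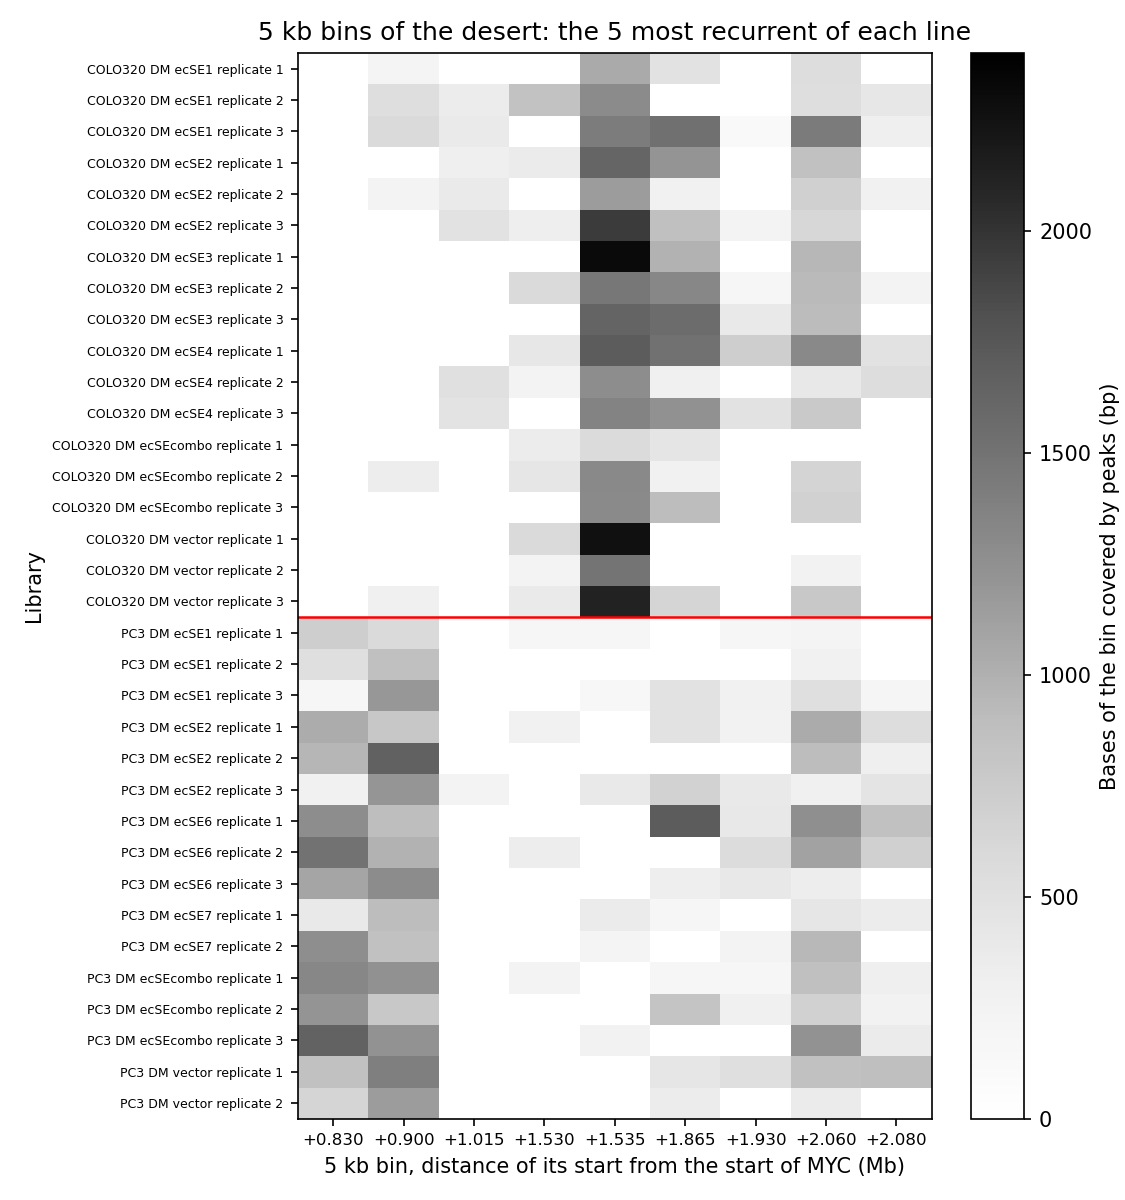
Bases covered by peaks in 9 bins of 5 kb of the desert, the 5 most recurrent of each line with 1 shared, 1 row per library, ordered by plasmid with the vector last in each line; the red line parts COLO320 DM (above) from PC3 DM (below). Columns are labelled by distance from the start of MYC. The bin at 1.535 Mb is shaded in every COLO320 DM row, from 565 to 2314 bp, and the bins at 0.830 and 0.900 Mb are shaded in every PC3 DM row.

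CCDC26, a long gene, carried peaks in nearly every library of both lines, at about the density of the whole desert. The gene itself held 9.30 peaks per Mb in COLO320 DM and 22.3 in PC3 DM, against 10.3 and 23.3 over the desert. Within the gene or 2 kb of it, 17 of 18 libraries of COLO320 DM and 16 of 16 of PC3 DM had a peak, too many to test. Without that margin, the gene held in COLO320 DM 0 to 11 peaks (median 2.5, mean 3.06 ± 2.29) and in PC3 DM 1 to 24 (median 5.5, mean 7.31 ± 5.46), and the covered lengths averaged 1305 bp and 2015 bp. Both maxima came from the lists of over 100000 peaks. By group, the means in COLO320 DM were 5.67 peaks for ecSE1, 2.33 for ecSE2, 2.67 for ecSE3, 3.67 for ecSE4, 2.67 for ecSEcombo and 1.33 for the vector. In PC3 DM they were 7.67 for ecSE1, 6.00 for ecSE2, 6.33 for ecSE6, 4.00 for ecSE7, 11.0 for ecSEcombo and 8.00 for the vector. The single library without a CCDC26 peak was vector replicate 2 of COLO320 DM, which is also the shortest list.

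LINC00824 had a peak within 2 kb in 13 of 18 libraries of COLO320 DM and 16 of 16 of PC3 DM (Fisher's exact test, adjusted over all genes p = 0.202). Without the margin, it held in COLO320 DM 0 to 12 peaks (median 1, mean 2.11 ± 2.95) and in PC3 DM 1 to 6 (median 2.5, mean 3.31 ± 1.78), covering 749.5 bp and 994 bp on average. The 12 peaks were those of ecSE1 replicate 2, the longest list. By group, the means in COLO320 DM were 5.33 peaks for ecSE1, 2.00 for ecSE2, 0.667 for ecSE3, 1.33 for ecSE4, 1.67 for ecSEcombo and 1.67 for the vector. In PC3 DM they were 3.67 for ecSE1, 3.00 for ecSE2, 3.67 for ecSE6, 2.00 for ecSE7, 4.67 for ecSEcombo and 2.00 for the vector.

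Of 13 genes tested in the desert, 1 was called between the lines, against 6.24% of 22361 genes tested in the genome. It was LOC124902023, an uncharacterised long noncoding RNA gene, with a peak in 1 of 18 libraries of COLO320 DM and 10 of 16 of PC3 DM (Fisher's exact test, adjusted p = 0.0185). The call was lost with peaks of a -log10 q of at least 5 (exact test, adjusted p = 0.107) and in lists of equal length (exact test, adjusted p = 0.333). The count was 2 without vector replicate 3 of COLO320 DM, without ecSE1 replicate 2 of COLO320 DM or with genes taken without their margins.

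The other genes with recurrent peaks did not pass. LOC124902024 had one in 18 of 18 libraries of COLO320 DM and 10 of 16 of PC3 DM (exact test, adjusted p = 0.066), and passed with the stricter q (exact test, adjusted p = 0.000606). Over 5 other settings its exact test gave adjusted p from 0.000466 to 0.862. Without the 2 kb margins the gene averaged 0.833 peaks in COLO320 DM and 0.625 in PC3 DM. The COLO320 DM summits in the bin from 129270001 lay at 129271382 to 129274101, past the gene's end at 129270895. LOC124902020, LOC124902021 and LINC00977, all noncoding, had peaks in 1, 8 and 2 of 18 COLO320 DM libraries, against 8, 8 and 8 of 16 PC3 DM libraries. GSDMC had a peak in 3 of 18 libraries of COLO320 DM and 10 of 16 of PC3 DM (exact test, adjusted p = 0.112). CYRIB, which encodes a Rac1-binding protein that restrains actin remodelling, had one in 9 of 18 and 12 of 16 (exact test, adjusted p = 0.386). Of the microRNA genes MIR1208 and MIR3686, MIR1208 had a peak within 2 kb in 1 COLO320 DM library and MIR3686 in none of the lists.

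Plasmids left no called mark on single positions. Libraries with a plasmid or the combination were set against the other libraries of the line in 8 comparisons, which assumes that the combination includes each single plasmid. None of 37638 tested bins in COLO320 DM and none of 62247 in PC3 DM were called in any of them, 0% of the genome and of the desert (Fisher's exact test, adjusted p at least 0.696 for the bins of smallest p in the desert). At an unadjusted p under 0.05, the desert had 2, 0, 1 and 1 of 25 bins for ecSE1, ecSE2, ecSE3 and ecSE4 in COLO320 DM and 4, 4, 3 and 2 of 89 bins for ecSE1, ecSE2, ecSE6 and ecSE7 in PC3 DM. Over the genome 2.53, 1.17, 1.15 and 1.34% of tested bins had such a p in COLO320 DM and 5.13, 4.16, 3.46 and 1.19% in PC3 DM, in the same order of plasmids. The design limits these tests: in PC3 DM 156 or 286 bins would have to reach the smallest possible p before any could be called, and in COLO320 DM 41.

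The bins of smallest p were in COLO320 DM the one from 129345001 for ecSE1 (4 of 6 libraries with the plasmid, against 0 of 12 others, unadjusted exact p = 0.0049), from 128700001 for ecSE2 (0 of 6, against 4 of 12), from 128750001 for ecSE3 (0 of 6, against 7 of 12) and from 128655001 for ecSE4 (3 of 6, against 0 of 12). The first lies 1694 bp before CCDC26. In PC3 DM they were the bins from 129010001 for ecSE1 (3 of 6, against 0 of 10), from 128685001 for ecSE2 (3 of 6, against 0 of 10), from 128560001 for ecSE6 (4 of 6, against 0 of 10) and from 128550001 for ecSE7 (4 of 5, against 0 of 11, unadjusted exact p = 0.00275). The bins of ecSE6 and ecSE7 lie at the far end of LINC00824, and none of the 8 had an adjusted p under the threshold.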

How the data were processed

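CUT&Tag libraries of 34 samples were analysed from 1 peak list each, on hg38. The tools named are MACS2 2.2.7.1, bedtools, SAMtools, Bowtie2 2.3.5 and Trim Galore 0.6.6, per the submitters' processing notes, which give no order. An FDR of 0.001 and removal of blacklisted regions are stated in the deposited file names, and the smallest -log10 q found was 3.00. Control libraries and the handling of duplicates are not given in the sources used here. The deposited lists give for each peak a display score and a fold of the summit over the local background of the same library. They also give the -log10 of a p-value and of a q-value, and all were made by the authors. The fold is not the plain ratio of recovered fragments to recovered background. In desert peaks of PC3 DM, 8.19 fragments and a background of 0.585 went with a fold of 5.18, as means of library medians. The score was not used.

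From these lists, peaks were assigned by midpoint, 0.5 peak was added to counts of the desert, its parts and the amplicon side before ratios were taken, and covered length was the union of peaks. Whole fragments at summits were recovered from the deposited fold and -log10 p (tolerance 0.0005) for the desert, the amplicon side and 2000 sampled peaks elsewhere per library. In COLO320 DM, 98.9 to 99.6% of the peaks tried gave a whole number, and in PC3 DM 99.9 to 100%. Read totals were not used, so no interval for depth is given, and longer lists give more precise densities. Lines and plasmids were compared over libraries by two-sided permutation tests, exact for perturbed against vector, for single plasmids and for the combination, and with 100000 resamples otherwise. Bins of 5 kb and genes with 2 kb on each side were tested by Fisher's exact test over the genome, with Benjamini-Hochberg adjustment and a threshold of 0.05, where at least 3 libraries had a peak and at least 3 had none. Named were LINC00824, CCDC26, other genes with a peak in no fewer of a line's libraries than lacked one, the 5 most recurrent bins of each line, called bins, and the bin of smallest p per plasmid. Genes came from RefSeq (GRCh38.p14). Python 3.11.15, numpy 2.4.6, scipy 1.17.1 and pandas 2.3.3 were used, and the tests were checked on simulated data. The region, genes and tests were chosen with earlier results of these data known.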

Additional observations from a re-analysis of the deposited data

How the results depend on the processing

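The difference between the lines in relative density kept its sign and call without each library in turn (-0.69 to -0.62) and in 9 of 10 other settings, 1 of them, no peak added to a count, chosen after seeing the data. With vector libraries alone, 3 against 2, the differences were -0.46 in log2 relative density (exact permutation p = 0.2), -0.0317 in percent of list (exact p = 0.1), -0.299 in percent covered (exact p = 0.2) and 4.99 in log2 amplicon side over desert (exact p = 0.1); no p below 0.1 was possible there. The filter on genes could not be met by 5 libraries, so genes were not run on vector libraries.

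Amplicon side over desert in PC3 DM, 0.22 over all peaks, was 0.44 with a -log10 q of at least 5 (permutation p = 0.00576), 0.61 in lists of equal length (permutation p = 2e-05) and 0.42 by covered length (permutation p = 0.00037), and 0.14 to 0.26 without single libraries. Near over far, under the same 3 settings in this order, was -0.74, -1.57 and -0.80 in COLO320 DM (permutation p = 0.0155, 0.00017 and 0.00331), 0.32, 0.51 and 0.32 in PC3 DM (permutation p = 0.0469, 0.0187 and 0.0188), and -1.06, -2.08 and -1.12 between the lines (permutation p = 0.00227, 2e-05 and 0.00019). The cause was not tested.

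Perturbed over vector in COLO320 DM ran from -0.22 to 0.12 without single libraries and was 0.0127 with no peak added (exact permutation p = 0.929). The difference of the combination between lines was -0.52 by covered length (exact permutation p = 0.04) and -0.42 to -0.082 without single libraries. The step stayed at 128000000 in all 7 alternatives and without each library. The called bins numbered 2 to 4 in the desert, while the genome's share of called bins was 9.88% with the stricter q, 18.8% in equal lists and 29.0% with an overlap of 500 bp. The desert's own share under these settings was not computed, so its count cannot be set against them. Called genes numbered 2 without margins and 1 to 2 without single libraries.

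Signs turned for CCDC26 (6.94 percentage points, COLO320 DM minus PC3 DM, exact test, adjusted p = 0.817) and CYRIB (2.08) with the stricter q, for CYRIB in equal lists (4.17), for bin 129795001 with an overlap of 500 bp (15.3, exact test, adjusted p = 0.569) and for bin 128655001 without each ecSE4 library of COLO320 DM (-0.735, up to 10.0 without others).

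Replicate numbers did not pair the libraries: same-numbered libraries of different groups correlated at -0.271 to 0.228 in COLO320 DM and -0.353 to 0.312 in PC3 DM, and 8 of 34 libraries matched best with their own number. With the replicate number as a block the difference in relative density was -0.66 (permutation p = 1e-05), and no call changed.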
